A study of Mus musculus with 10 samples.

Results

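Among 10 genes known as markers of liver progenitor cells, of foetal liver or of liver tumours, 1 moved far in mouse liver after 28 days of phenobarbital: Prom1, which was 5.43-fold higher. Ly6d was slightly higher and Golm1 slightly lower. Spike-in levels of the arrays differed between the groups, and with their mean as a covariate neither Ly6d nor Golm1 was called, while Prom1 was. Epcam was called higher and Cd44 lower on their brightest probe sets. The other Epcam probe set had the opposite sign, and the other Cd44 probe sets went both ways. For neither gene was the mean over probe sets called. Afp, Gpc3, Sox9 and Krt19 did not pass the test on their brightest probe sets. The mean over the Afp probe sets was called lower (-0.19). The second Sox9 probe set, tested singly, was also called lower (-0.33), and the mean over the Sox9 probe sets was not called. The members were found by gene symbol in the platform annotation, which gave 19 of the 45101 probe sets, each carrying a single symbol, for 9 of the 10 genes. Spp1 is not analysed here. The 9 genes are part of 18193 genes measured, each represented by the probe set that was brightest on average.

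The tested livers came from 5 male B6C3F1/Crl mice (C57BL/6 male x C3H/He female) that drank 0.05% (w/v) phenobarbital in water for 28 days. The 5 control livers came from males of the same hybrid strain. All animals were 29 to 32 days old on receipt and had 5 days to settle before random assignment, and no allele or agent other than these is given. Whole-liver RNA of each animal was read on 1 Affymetrix array, and values are log2 expression. Phenobarbital is a barbiturate that promotes rodent liver tumours without damaging DNA. Cyp2b10, the classical phenobarbital-inducible P450, was at 13.52 ± 0.04 in phenobarbital livers and 6.47 ± 0.66 in control livers (SD, n = 5 each), higher in every treated animal.

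In adult liver, bile duct cells and the small progenitor cells that can appear beside the portal tracts carry surface proteins such as prominin-1 and EpCAM, the filament protein keratin 19 and the transcription factor SOX9. Foetal hepatocytes make alpha-fetoprotein and glypican-3, whose genes are silenced after birth and can be active again in hepatocellular tumours. Tumours can also raise the Golgi protein GOLM1 and the hyaluronan receptor CD44. In whole-liver RNA such markers come from few cells or from weak expression in many, and a change in cell number cannot be told apart from a change in RNA per cell.

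Windows of 300 bases at the gene start, 250 before and 50 after, come from RefSeq (GRCm38.p6) and run 5′ to 3′ on the gene's strand. They are shown for Prom1, the member that rose most, for Golm1, a tumour marker that fell, and for Afp, a foetal marker that did not pass. Prom1 has 2 start windows, and its single probe set does not say which start was used. Capitals mark matches, on either strand, to 5 motifs: the nuclear receptor half-site AGGTCA, the GC box GGGCGG, the TATA box TATAAA, the HNF1 half-site GTTAAT and the AP-1 motif TGANTCA.
Prom1, chr5:44101687-44101986, minus strand: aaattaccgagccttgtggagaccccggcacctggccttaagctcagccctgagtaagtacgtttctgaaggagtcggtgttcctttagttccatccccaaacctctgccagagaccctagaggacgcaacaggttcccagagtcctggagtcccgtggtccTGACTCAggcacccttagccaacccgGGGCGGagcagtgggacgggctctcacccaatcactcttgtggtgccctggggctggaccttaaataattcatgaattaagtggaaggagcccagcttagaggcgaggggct
Prom1, chr5:44094719-44095018, minus strand: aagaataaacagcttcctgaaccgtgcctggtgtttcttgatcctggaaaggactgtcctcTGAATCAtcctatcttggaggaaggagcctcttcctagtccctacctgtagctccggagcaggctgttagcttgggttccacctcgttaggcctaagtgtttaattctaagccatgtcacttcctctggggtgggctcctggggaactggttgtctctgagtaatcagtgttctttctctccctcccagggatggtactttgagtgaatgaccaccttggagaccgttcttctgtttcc
Golm1, chr13:59675735-59676034, minus strand: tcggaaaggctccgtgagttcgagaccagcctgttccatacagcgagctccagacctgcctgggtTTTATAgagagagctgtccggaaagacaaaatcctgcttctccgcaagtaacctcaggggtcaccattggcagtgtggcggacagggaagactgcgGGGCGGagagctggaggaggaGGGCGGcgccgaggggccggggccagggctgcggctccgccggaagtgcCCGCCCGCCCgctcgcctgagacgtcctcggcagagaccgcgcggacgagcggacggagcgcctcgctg
Afp, chr5:90490464-90490763, plus strand: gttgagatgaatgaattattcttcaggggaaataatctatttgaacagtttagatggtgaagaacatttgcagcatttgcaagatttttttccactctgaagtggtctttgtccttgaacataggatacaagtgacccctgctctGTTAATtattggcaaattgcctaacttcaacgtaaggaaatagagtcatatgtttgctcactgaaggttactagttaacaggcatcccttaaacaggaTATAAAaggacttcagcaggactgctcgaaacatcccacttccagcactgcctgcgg

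Both Prom1 windows matched the AP-1 pattern TGANTCA, starting at -88 in the first and at -189 in the second relative to the gene start. The letter that the pattern leaves free was C in the first window and A in the second. With any letter there, 7.81% of all 32851 windows match. The first Prom1 window also held a GC box at -62, found in 35.7% of all windows. The Golm1 window held 4 GC boxes, of which the pair at -19 and -15 share bases, and a TATA box on the opposite strand at -185, and it had 30 CpG dinucleotides against 10 and 4 in the Prom1 windows. The Afp window held the HNF1 half-site at -105, found in 7.10% of all windows, and a TATA box at -7, found in 13.6%. The nuclear receptor half-site AGGTCA, the core of elements bound by CAR, the receptor through which phenobarbital acts, and by related receptors, was in 16.3% of all windows and its letters were in none of the 4 shown. These matches are descriptions of the letters alone. Windows were also listed for Gpc3, Epcam, Cd44 and Spp1.

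The arrays fell apart in their spike-in controls, and these values touch every result here. Averaged over 24 probe sets, the poly-A spike-ins, which enter the RNA ahead of labelling, read 5.76 to 6.58 on the phenobarbital arrays, against 7.77 to 8.64 on control replicates 1, 2, 3 and 5 and 6.40 on control replicate 4. The upper quartile of all probe sets was 7.30 to 7.36 on phenobarbital arrays and 7.39 to 7.46 on control arrays (exact two-sided permutation p = 0.00794, the smallest that 5 against 5 can give, Benjamini-Hochberg 0.0357 over 6 array measures). Beta-actin 3' minus 5', a sign of RNA integrity and labelling length, was 1.19 to 1.33 on phenobarbital arrays, against 1.46 to 1.78 on control replicates 1, 2, 3 and 5 and 1.28 on control replicate 4 (exact permutation, Benjamini-Hochberg 0.0357). Hybridisation spike-ins were 10.54 to 10.74 on phenobarbital arrays, against 10.95 to 11.30 on those 4 controls and 10.65 on control replicate 4 (exact permutation, Benjamini-Hochberg 0.0381). The part of the beta-actin and hybridisation readings in the results was not tested. No label names a batch. With the spike-in set as a block, a gene's value becomes the mean of the 5 phenobarbital arrays minus control replicate 4, and is called the within-set value below; the high set holds controls alone and gives no comparison. A within-set value therefore rests on 1 control animal.

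By limma with Benjamini-Hochberg adjustment over all genes, 5 of the 9 members were called at an adjusted p under 0.05, with 3 higher and 2 lower. The same rule called 20.3% of all genes, 9.02% as higher and 11.3% as lower. Phenobarbital and control livers were fully separated in 3 members, Prom1, Ly6d and Golm1, as they were in 12.9% of all genes. The median log2 change was 0.08 over the 9 members and 0.008 over all genes. With the spike-in set as a block 1 member, Prom1, and 0.786% of all genes passed.

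**Figure D1:**
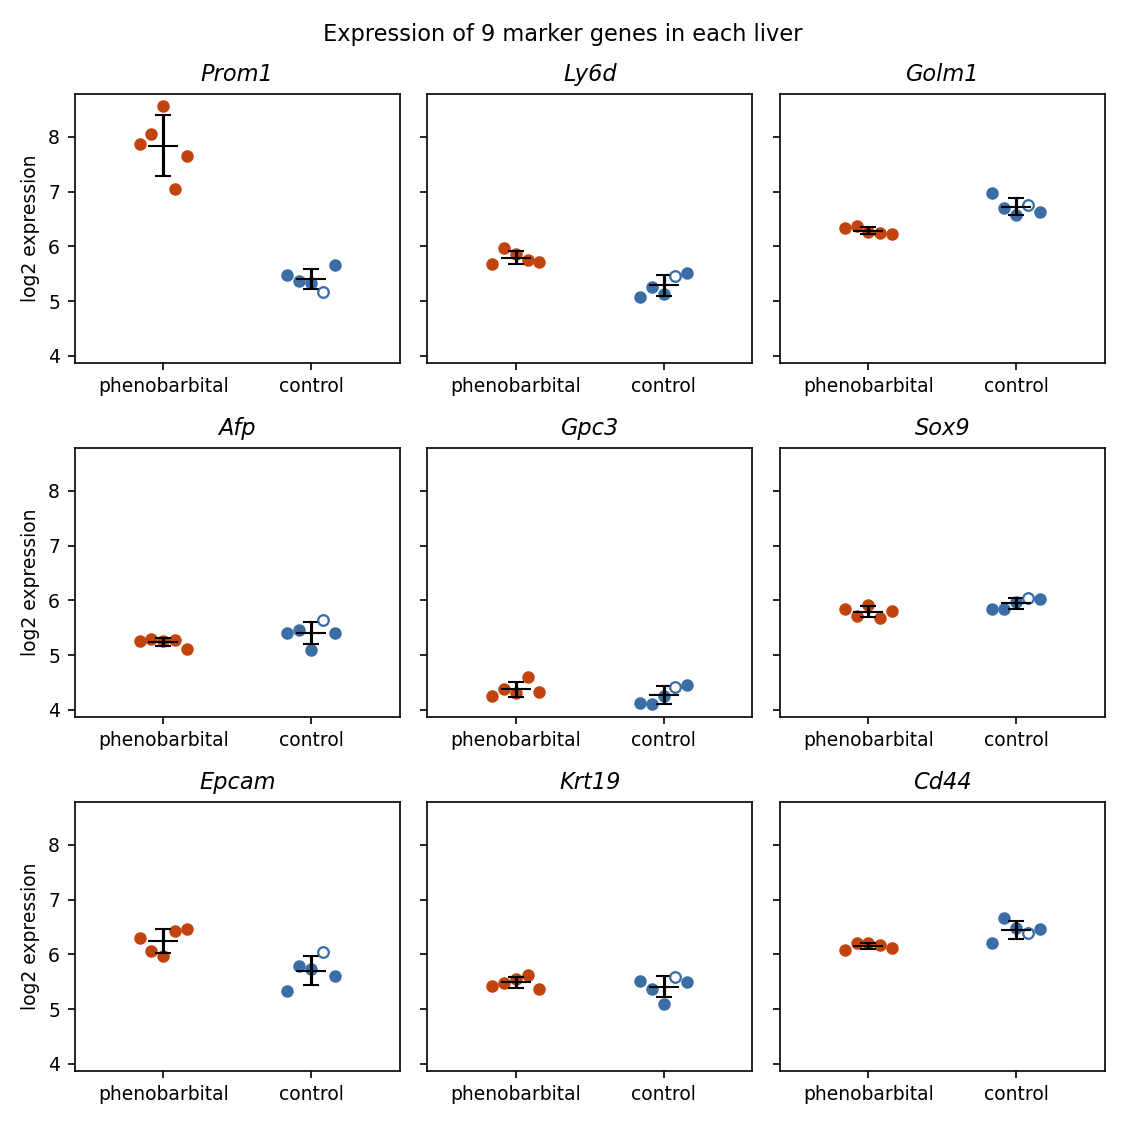
Each panel shows 1 gene, with log2 expression on the vertical axis and a point for each liver, phenobarbital left and control right; bars are mean ± SD (n = 5) and the open point is control replicate 4. Prom1 stood at 7.05 or more in all phenobarbital livers and at 5.66 or less in all control livers, while the other genes differ by far less.

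Prom1 encodes prominin-1 (CD133), a glycoprotein of membrane protrusions used to mark progenitor cells and bile duct cells in liver. Its log2 expression was 7.88, 8.06, 8.57, 7.05 and 7.65 in phenobarbital livers, against 5.48, 5.37, 5.34, 5.16 and 5.66 in control livers. Every phenobarbital liver lay above every control liver, and the phenobarbital livers spread more widely, with means of 7.84 ± 0.56 and 5.40 ± 0.18 (SD, n = 5 each). The log2 change was 2.44 ± 0.21 (SE, limma adjusted p = 1.4e-05), 5.43-fold, and 13 of the other genes measured rose as much or more, as Prom1 ranked 14 of 18193. The within-set value was 2.68 (limma adjusted p = 0.00548). Leaving out any 1 animal gave log2 changes from 2.26 to 2.64, and all 10 omissions kept the call. It has a single probe set, whose suffix marks probes shared by several transcripts of the gene.

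EpCAM, an adhesion protein of duct and progenitor epithelium, gave opposite signs on its probe sets. The probe set with the higher mean read 6.30, 6.07, 5.97, 6.42 and 6.46 in phenobarbital livers, against 5.34, 5.79, 5.73, 6.05 and 5.60 in control livers. The groups overlapped only through control replicate 4, at 6.05, and phenobarbital replicate 3, at 5.97. The log2 change of Epcam was 0.54 ± 0.13 (SE, limma adjusted p = 0.0123), 1.46-fold, and 0.19 within the set (limma adjusted p = 0.717). The suffix of this Epcam probe set marks probes that can bind unrelated transcripts. The other Epcam probe set read 5.64, 5.80, 5.63, 5.47 and 5.58 in phenobarbital livers, against 5.91, 5.83, 5.69, 5.89 and 5.69 in control livers. Its log2 change was -0.18 ± 0.08 (SE) and did not pass when all probe sets were tested singly (limma adjusted p = 0.125), so a rise of Epcam was seen on 1 of its 2 probe sets.

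Cd44 encodes the receptor for hyaluronan, present on leukocytes, mesenchymal cells and some tumour cells. Its probe set with the highest mean read 6.08, 6.21, 6.20, 6.17 and 6.11 in phenobarbital livers, against 6.21, 6.67, 6.49, 6.39 and 6.46 in control livers. Control replicate 1 stood at 6.21, the highest phenobarbital value, and the other control livers lay above every phenobarbital liver. The log2 change was -0.29 ± 0.08 (SE, limma adjusted p = 0.0237), 1.22-fold lower, and -0.24 within the set (limma adjusted p = 0.503). The call was lost without control replicate 2 (-0.23), control replicate 3 (-0.28), phenobarbital replicate 1 (-0.27) or phenobarbital replicate 5 (-0.28), at limma adjusted p from 0.0502 to 0.0553. Tested singly, another Cd44 probe set was lower (-0.56 ± 0.14 SE, limma adjusted p = 0.0189), the third was not called (0.07 ± 0.09 SE), and the fourth was higher (0.38 ± 0.07 SE, limma adjusted p = 0.00534). The fourth read 3.89 to 4.09 in phenobarbital livers and 3.47 to 3.74 in control livers, below the lower quartile of every array, 4.13 or more. The mean over the probe sets gave -0.10 and no call.

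**Figure D2:**
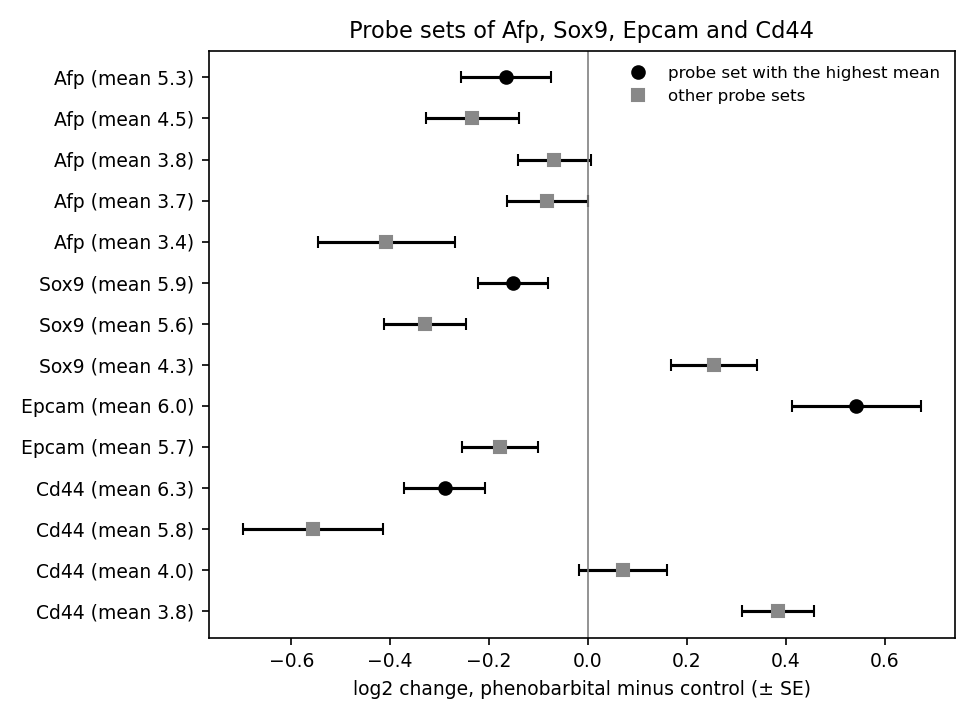
Log2 change, phenobarbital minus control, with its SE for each probe set of the 4 genes that have more than 1; the vertical axis names the gene and the probe set's mean log2 level, and circles mark the probe set with the highest mean. Afp probe sets all lie below 0, while those of Sox9, Epcam and Cd44 lie on both sides.

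SOX9 is the transcription factor of bile duct cells and of cells that can form duct-like progenitors. Its probe set with the highest mean read 5.84, 5.71, 5.92, 5.68 and 5.81 in phenobarbital livers, against 5.84, 5.85, 5.97, 6.04 and 6.02 in control livers. The ranges overlapped, with a log2 change of -0.15 ± 0.07 (SE, 95% interval -0.30 to -0.002, limma adjusted p = 0.139) and a within-set value of -0.25. Tested singly, the second Sox9 probe set read 5.22 to 5.53 in phenobarbital livers and 5.59 to 5.85 in control livers, without overlap, and passed (-0.33 ± 0.08 SE, limma adjusted p = 0.0169). The third, near the lower quartile of the arrays, had a log2 change of 0.25 ± 0.09 (SE, limma adjusted p = 0.0586). No Sox9 probe set was called higher, and 18.7% of all probe sets passed in either direction.

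Keratin 19, a filament protein of bile duct and mesothelial cells, read 5.43, 5.48, 5.55, 5.63 and 5.37 in phenobarbital livers, against 5.51, 5.36, 5.10, 5.58 and 5.50 in control livers. The groups overlapped over most of their range. The log2 change of Krt19 was 0.08 ± 0.09 (SE, 95% interval -0.12 to 0.28, limma adjusted p = 0.554), and the within-set value was -0.09.

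Alpha-fetoprotein is a serum protein of the albumin family made by foetal liver and yolk sac. Its brightest probe set read 5.25, 5.30, 5.25, 5.28 and 5.11 in phenobarbital livers, against 5.41, 5.46, 5.10, 5.65 and 5.40 in control livers. The groups overlapped through control replicate 3, the lowest of all at 5.10. The log2 change of Afp was -0.17 ± 0.09 (SE, 95% interval -0.36 to 0.03, limma adjusted p = 0.207), and -0.41 within the set (limma adjusted p = 0.207). Without control replicate 3 it was -0.24 and passed (limma adjusted p = 0.0477), as did the mean of the 5 probe sets (-0.19, limma adjusted p = 0.0411). All 5 probe sets had negative log2 changes, from -0.41 to -0.07, and none passed singly. Those at -0.41, -0.08 and -0.07 read 4.06 or less in every liver, below the lower quartile of every array, 4.13 or more. The second brightest, at -0.23, had a within-set value of 0.01. The interval for the brightest probe set ends at 0.03, but it takes no account of the spike-in levels. Without detection calls this probe set is not shown to read above background.

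Glypican-3 is a heparan sulphate proteoglycan of the cell surface, made in foetal liver and in many hepatocellular carcinomas. It read 4.26, 4.38, 4.31, 4.60 and 4.33 in phenobarbital livers, against 4.13, 4.10, 4.26, 4.42 and 4.45 in control livers. Ranges overlapped, near the lower quartile of the arrays (4.13 to 4.20), where fold changes can be understated, which was not tested here. The log2 change of Gpc3 was 0.10 ± 0.09 (SE, 95% interval -0.09 to 0.30, limma adjusted p = 0.430), and -0.04 within the set.

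GOLM1 is a Golgi membrane protein that is shed into blood and is raised in human hepatocellular carcinoma. Golm1 read 6.34, 6.38, 6.26, 6.25 and 6.22 in phenobarbital livers, against 6.98, 6.71, 6.57, 6.76 and 6.62 in control livers. Every phenobarbital liver lay below every control liver. The log2 change was -0.44 ± 0.08 (SE, limma adjusted p = 0.0033), 1.35-fold lower, and its size did not shrink within the set, at -0.47, though it did not pass there (limma adjusted p = 0.167). Omitting single animals gave -0.48 to -0.38 and kept the call in 10 of 10 cases.

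LY6D is a small GPI-anchored surface protein of the Ly6 family, known in mouse from early B-lineage cells and keratinocytes. Ly6d read 5.68, 5.97, 5.86, 5.75 and 5.71 in phenobarbital livers, against 5.08, 5.26, 5.14, 5.46 and 5.51 in control livers. Phenobarbital livers were all higher, and the nearest controls were replicates 4 and 5. The log2 change was 0.50 ± 0.09 (SE, limma adjusted p = 0.00385), 1.42-fold, and 0.33 within the set (limma adjusted p = 0.384). The 10 omissions of a single animal gave 0.45 to 0.56 and kept the call.

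**Figure D3:**
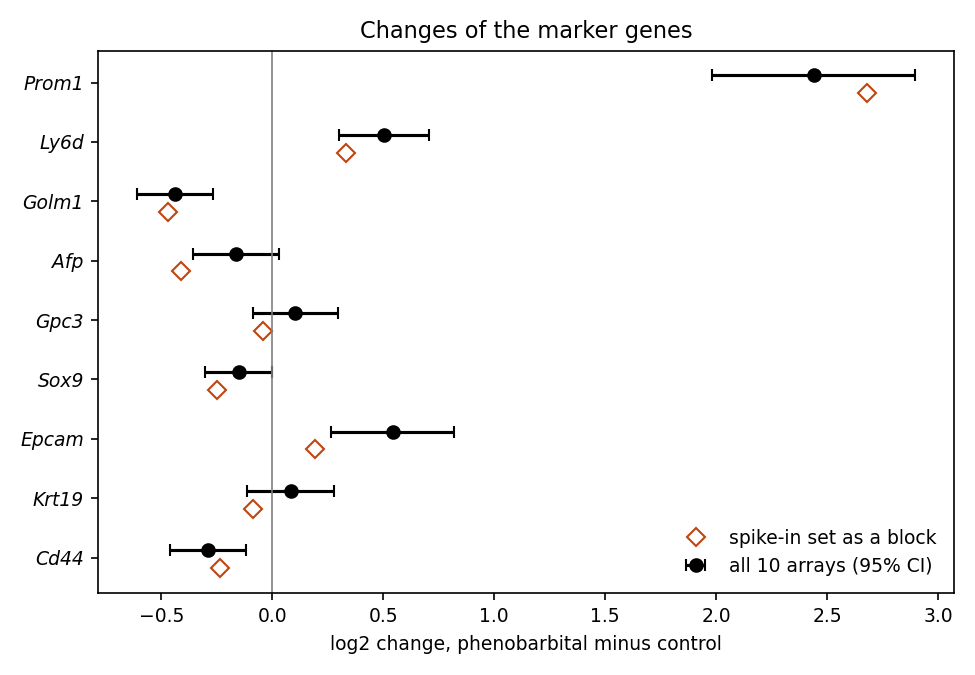
Log2 change, phenobarbital minus control, for the 9 genes: filled circles with 95% intervals use all 10 arrays, and open diamonds take the spike-in set as a block. Prom1 lies at 2.44 and 2.68, and the other genes lie between -0.47 and 0.54 on both measures.

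Genes whose values ran most like those of Prom1 over the 10 arrays were Ppp1r42 (Pearson r = 0.993, Spearman rho = 0.952), Abcc4 (r = 0.984, rho = 0.939) and Fam171a1 (r = 0.975, rho = 0.879). These coefficients span both groups, so they describe a shared difference between groups together with the order of animals, and arrays of a group share the spike-in level. The nearest gene was Rhog for Ly6d (r = 0.971, rho = 0.976), Hmgxb4 for Golm1 (r = 0.960, rho = 0.903), 4930597G03Rik for Epcam (r = 0.984, rho = 0.988) and Vim, which encodes the mesenchymal filament vimentin, for Cd44 (r = 0.965, rho = 0.918).

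Of 12 measured cholangiocyte markers outside the 9 genes, 1 was higher and none lower, where 9.02% of all genes were higher and 11.3% lower; the list with its members had a median log2 change of 0.05. The 1 was Cdh1, encoding E-cadherin, which hepatocytes also make (0.25 ± 0.07 SE, 0.26 within the set, call held in 4 of 10 omissions with values from 0.19 to 0.28). Krt7, a duct keratin, stood at 4.17 ± 0.15 in phenobarbital livers and 4.33 ± 0.18 in control livers (SD, n = 5 each; limma adjusted p = 0.239). Krt8, a keratin of hepatocytes and ducts alike, was 0.29 ± 0.08 higher (SE, 0.30 within the set, call held in 5 of 10 omissions with values from 0.22 to 0.33), and its partner Krt18 had a log2 change of 0.25 ± 0.08 (SE, limma adjusted p = 0.0514; 0.11 within the set). Krt18 passed in 10 of the alternative settings, at 0.26 after quantile normalisation and 0.28 after median centring, and not in 11. The summed level of the cholangiocyte list was 10.88 to 11.03 in phenobarbital livers and 10.67 to 10.89 in control livers, on the log2 scale. Cdh1, with means of 10.33 and 10.08, makes up the largest part of this sum, as the median gene level of the list was 5.51. The sum therefore does not show a rise of duct markers in general. The part of the duct markers in the Prom1 change was not tested. None of the 6 mesothelial markers passed, and neither list had a member called with the spike-in set as a block.

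In the progenitor niche list, 4 of 14 measured genes were lower and 1, Cdh1, was higher, with a median log2 change of 0.07. Of all genes, 11.3% were lower and 9.02% higher. Lgr5, a Wnt-responsive receptor of stem cells and of hepatocytes near the central vein, had the largest fall (-1.05 ± 0.12 SE, limma adjusted p = 0.000138; 5.89 ± 0.18 in phenobarbital livers and 6.94 ± 0.24 in control livers, SD, n = 5 each). It passed within the set as well (-1.07, limma adjusted p = 0.0374), but the mean of its 2 probe sets gave a smaller log2 change of -0.33 (limma adjusted p = 0.0101), so the other probe set was higher in phenobarbital livers. Hepatocyte growth factor, Hgf, and its receptor Met fell by 0.58 and 0.46 on the log2 scale, with within-set values of -0.12 and -0.28 that did not pass. The means of their probe sets gave -0.26 and -0.24, and both passed.

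Of 10 measured foetal liver genes other than Afp and Gpc3, 2 were higher and 1 lower, with 9.02% and 11.3% of all genes as background, and the list had a median of 0.09 with Afp and Gpc3. Cpe, a carboxypeptidase that trims prohormones, was at 6.21 ± 0.10 in phenobarbital livers and 5.25 ± 0.18 in control livers (SD, n = 5 each; log2 change 0.96, limma adjusted p = 2.1e-05; 0.69 within the set, limma adjusted p = 0.0241), but its other probe set gave -0.11 and no call, and the mean of both gave 0.43. Igf2bp1, an RNA-binding protein of embryonic tissue, was 0.33 higher (0.31 within the set, call held in 6 of 10 omissions with values from 0.27 to 0.37), and Peg3, an imprinted zinc finger gene, had a log2 change of -0.35 (-0.39 within the set). Neither passed within the set or with the mean of its probe sets, which gave 0.11 for Igf2bp1 and -0.08 for Peg3. Igf2 and Dlk1, growth regulators of foetal liver, had log2 changes of 0.15 ± 0.08 and -0.07 ± 0.06 (SE), and neither passed, although the mean of the Igf2 probe sets did (0.23, limma adjusted p = 0.0197). The 12 measured regulators of Afp had a median gene level of 9.68, and of the 9098 brighter genes, tested alone, 1798 were lower and 838 higher. Of these 12 regulators, 4 were lower and none higher, with a list median of -0.13. They included Zbtb20, the repressor that silences Afp after birth (-0.39 ± 0.12 SE, limma adjusted p = 0.0445, -0.14 within the set, not called at -0.35 after median centring or -0.32 with the mean of its probe sets, call held in 2 of 10 omissions with values from -0.48 to -0.31), Zfhx3 (-0.43, -0.27 within the set) and Nr2f1 (-0.43, -0.18 within the set). Nr2f1 had means of 3.44 in phenobarbital livers and 3.87 in control livers, below the lower quartile of every array, 4.13 or more. Zhx2, like Zbtb20 a postnatal repressor of Afp, had a log2 change of -0.14 ± 0.14 (SE, limma adjusted p = 0.506).

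Counts for signalling genes tied to duct formation, and for partners and relatives of the members, stand beside 9.02% higher and 11.3% lower of all genes. Of 11 Notch pathway genes 2 were higher and 3 lower (median 0.09), the lower ones being the ligand Jag1 (-0.48, -0.42 within the set) and the receptors Notch1 (-0.47, -0.18) and Notch2 (-0.44, -0.24). Of 15 genes of YAP and TEAD, their regulators and their targets, 4 were lower and none higher (median -0.14). Among them, Stk4, a kinase that restrains YAP, was at -0.41 and -0.14 within the set. Partners of osteopontin and CD44 had 2 higher and 5 lower of 19 (median 0.08). The integrin chain Itga4 rose by 0.50 (0.41 within the set), the splicing factor Esrp1, which acts on CD44 transcripts, by 0.496 (0.53 within the set) near the bottom of the scale, and the matrix protease Mmp14 fell by 0.45 (-0.09 within the set). Relatives of the 9 genes had 2 higher and 5 lower of 21 (median -0.03), among them Sox4 (-0.67, -0.09 within the set), the GOLM1 relative Golm2 (-0.44, -0.27) and the glypican Gpc6 (-0.34, -0.14). None of the genes named in these sentences passed within the set. With the mean of their probe sets Notch2 (-0.08), Mmp14 (-0.12) and Sox4 (-0.11) lost their call, and Jag1 (-0.18), Itga4 (0.21) and Golm2 (-0.28) kept it at a smaller size.

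Of 16 other genes linked to rodent liver tumours 1 was higher and none lower (median 0.03), where 9.02% of all genes were higher and 11.3% lower. That gene, Lcn2, encodes the iron-scavenging acute phase protein lipocalin-2 and was at 6.21 ± 0.32 in phenobarbital livers and 5.40 ± 0.23 in control livers (SD, n = 5 each; log2 change 0.81, limma adjusted p = 0.0033, 0.49 within the set without passing). Of 9 proliferation genes, Mcm2, a subunit of the replicative helicase, was called higher (0.38, 0.43 within the set without passing), and Mki67, the Ki-67 gene, had a log2 change of 0.20 ± 0.12 (SE, limma adjusted p = 0.232).

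Cell types in which Cd44, Krt19 or Ly6d can be made were read through their own markers. Beside these counts, 9.02% of all genes were higher and 11.3% lower. Among the 9098 brighter genes, tested alone, 838 were higher and 1798 lower. Median gene levels were 8.05 in the stellate list and 8.23 in the endothelial list. Stellate cell markers were lower in 6 of 12 and higher in none (median -0.38, and -0.54 within the set, where none passed), with Lrat, which stores retinol as esters, at -0.86 (-0.66 within the set), Hand2 at -0.85 (-0.97) and Pdgfrb at -0.67 (-0.57). Hand2 was not called with the mean of its probe sets (-0.19), nor Pdgfrb on its single-transcript probe set (-0.23). Their summed level was 12.35 to 12.84 in phenobarbital livers and 13.01 to 13.16 in control livers. Endothelial markers were lower in 6 of 10 and higher in none (median -0.31, and -0.26 within the set). Their summed levels were 11.70 to 12.13 in phenobarbital livers and 12.16 to 12.53 in control livers. Clec4g, with means of 10.45 and 10.77, and Fcgr2b, with means of 9.53 and 10.10, were the brightest of this list and weigh most in the sum. Fcgr2b fell most, at -0.57, although its single-transcript probe set gave 0.17 and the mean of its probe sets -0.19, neither called. Granulocyte and leukocyte markers had 1 higher and 1 lower of 8, lymphocyte markers 1 higher of 10, and Kupffer cell and macrophage markers 1 lower of 12. The part of these cells in the lower Cd44 was not tested. Hepatocyte markers had 1 lower of 10, and markers of pancreas, gut and squamous epithelium had 1 higher and 2 lower of 10.

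**Figure D4:**
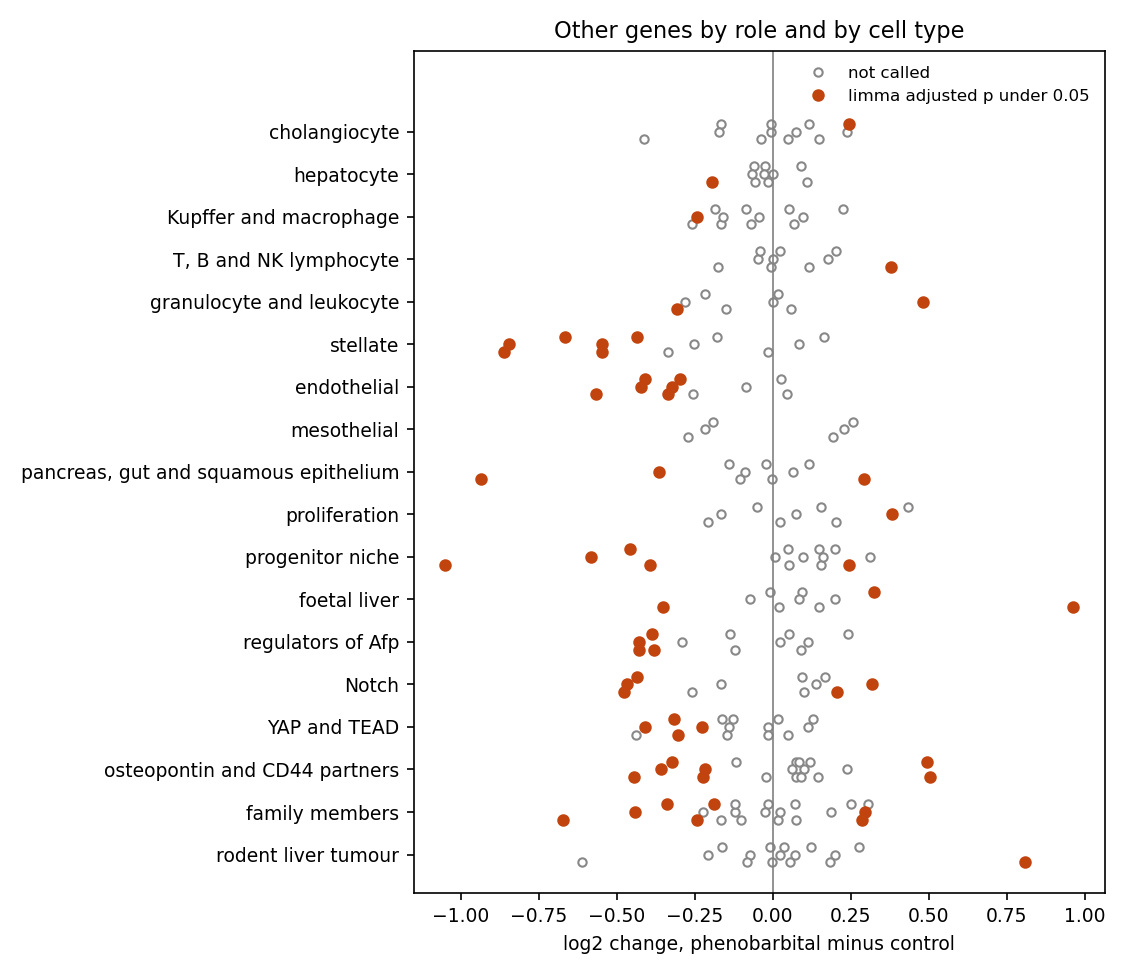
Log2 change, phenobarbital minus control, of each measured gene outside the 9 members, in a row for each list; filled points passed limma at an adjusted p of 0.05. Stellate and endothelial markers lie mostly left of 0, with 6 of 12 and 6 of 10 called lower, where 11.3% of all genes were. Of the 9098 brighter genes, tested alone, 1798 were lower and 838 higher. The duct markers lie around 0.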

How the data were processed

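Whole-liver RNA of 10 mice was hybridised to Affymetrix arrays, 1 per animal, after 3' IVT labelling, which reads the 3' end of polyadenylated RNA, per the labels' protocols. The authors deposited log2 expression values, from 2.34 to 15.13, per probe set and array; the scale was read from this range. Per the submitters' processing notes GCOS was used, and the summarising and normalising methods are not given in the sources used here. Array medians were 5.42 to 5.50, quartiles differed by at most 0.16, and values were used as deposited. No detection calls were used, so low levels are not shown to be above background. The number of arrays limits the precision.

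Genes took the platform annotation's single symbol and the probe set with the highest mean (18193 genes). Groups were compared with limma 3.58.1 in R 4.3.3 (lmFit, eBayes, two-sided, Benjamini-Hochberg over all genes), tested on simulated data. Replicate numbers did not pair animals: correlations of same-numbered arrays' deviations were -0.02 to 0.12. Alternatives covered normalisation, centring, low levels, probe set choice, variance model, weights, replicate and spike-in blocks, and omission of each animal. Summed list levels are log2 of summed antilog values. The text names the 9 members, up to 3 called genes per list, 12 genes fixed by name, and the genes most correlated with each called member, in part. Members, lists and the spike-in alternatives were chosen with earlier results of these data known, and not every listed gene is analysed here. Figures used matplotlib 3.10.9.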

Additional observations from a re-analysis of the deposited data

Results flagged for a closer look

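Afp in phenobarbital replicate 5 stood at 5.11, while the other phenobarbital livers lay between 5.25 and 5.30, a gap that is large for the narrow range of this group. Control replicate 3 was as low, at 5.10. Groups of 5 show such a gap by chance in about 1 of 20; 1 of the 18 groups examined here showed it.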

How the results depend on the processing

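The genes called numbered 3692, or 143 with the spike-in set as a block, 129 with the spike-in mean as a covariate, 8425 of 45037 probe sets tested singly, and 2431 (without phenobarbital replicate 2) to 4610 (without control replicate 4) with an animal left out. The higher and lower calls, 1641 and 2051, were 2305 and 1539 after quantile normalisation, 2188 and 1532 after median centring and 838 and 1798 among the brighter genes. Members called fell to 1 with either spike-in setting, to 2 among the brighter genes, where 2 were tested, and to 3 of 7 on single-transcript probe sets, where Prom1 and Epcam have none. Cd44 also lost its call after quantile normalisation (-0.21) and Epcam with the mean of its probe sets (0.18). The called genes of the other lists, 57 of 212, were 2 with either spike-in setting. Signs turned with the spike-in block and covariate for Gpc3 (-0.044 and -0.12) and Krt19 (-0.088 and -0.13), with the covariate for Igf2 (-0.0062), and on single-transcript probe sets for Dlk1 (0.064), Cpe (-0.11) and Fcgr2b (0.17); the cause was not tested. The replicate number as a block gave 3664 genes and 5 members, and changed no member's call. Signal near the lower quartile limits Gpc3 and the dimmer probe sets.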
